A study of Mus musculus with 5 samples.

Results

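The early part of cholesterol synthesis was described here in BV-2 cells, an established mouse microglial cell line, through 8 genes fixed by symbol, 7 for enzymes and 1 for a regulator: Hmgcs1, Mvk, Mvd, Idi1, Fdps, Fdft1, Sqle and Insig1. All 8 were among the 40879 gene symbols of the count files. There were 5 libraries, 1 per group, made by 3′-end sequencing primed with oligo-dT. The groups were a normal control, cells exposed for 23 h to urban particulate matter (UPM) at 50 μg/mL, and cells that received TZ (trazodone, an antidepressant) at 1.25, 2.5 or 5 μg/mL for 1 h before the same UPM exposure. These last groups are called TZ 1.25, TZ 2.5 and TZ 5, and each also carried UPM. The labels do not say whether the control received a solvent, and TZ without UPM was not analysed here. BV-2 is a single line of transformed cells, so the libraries do not sample different animals.

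The mevalonate pathway builds isoprenoid units from acetyl-CoA. The units are joined into farnesyl diphosphate, from which the cell makes sterols, prenyl groups for proteins, dolichol and the ubiquinone side chain. Most of its genes are transcribed through SREBP2, a membrane-bound transcription factor that is carried from the endoplasmic reticulum to the Golgi and cut when sterols are low. The Insig proteins hold the SREBP escort protein Scap in the endoplasmic reticulum when sterols are plentiful, and Insig1 is itself a target of SREBP2. Microglia make sterols for their own membranes and also take up lipid from debris and myelin.

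Of the 8 genes, 5 had an entry in the RefSeq promoter table of build GRCm38.p6, each spanning 250 bases before to 50 bases after the annotated start. Fdps, Fdft1 and Sqle are named only. The promoters of Hmgcs1, Mvd and Insig1 are shown because, as described below, the first had nearly 1 level in every library while the other 2 were lowest in TZ 5. Idi1, at 9 to 13 counts, and Fdft1, which had no entry, were also lowest in TZ 5. They lie at chr13:119690101-119690400 (plus strand), chr8:122443373-122443672 (minus strand) and chr5:28071162-28071461 (plus strand). Capitals mark matches on either strand to CACNCCAC (a core shared by sterol regulatory elements, which SREBP binds), CCAAT (the box bound by NF-Y) or GGGCGG (the GC box bound by Sp1 factors), and no match overlapped another.
Hmgcs1: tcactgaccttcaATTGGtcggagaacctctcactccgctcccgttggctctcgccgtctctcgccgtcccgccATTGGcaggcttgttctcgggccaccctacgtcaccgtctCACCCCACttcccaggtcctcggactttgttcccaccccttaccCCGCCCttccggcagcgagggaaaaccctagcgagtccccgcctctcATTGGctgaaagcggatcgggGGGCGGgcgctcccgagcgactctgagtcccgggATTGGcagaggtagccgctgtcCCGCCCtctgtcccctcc
Mvd: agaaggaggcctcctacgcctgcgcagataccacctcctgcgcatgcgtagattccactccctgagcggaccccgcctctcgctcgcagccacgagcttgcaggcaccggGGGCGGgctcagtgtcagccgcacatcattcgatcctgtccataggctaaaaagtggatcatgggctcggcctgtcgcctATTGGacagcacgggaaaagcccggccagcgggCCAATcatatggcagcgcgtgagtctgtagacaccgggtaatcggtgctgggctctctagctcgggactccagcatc
Insig1: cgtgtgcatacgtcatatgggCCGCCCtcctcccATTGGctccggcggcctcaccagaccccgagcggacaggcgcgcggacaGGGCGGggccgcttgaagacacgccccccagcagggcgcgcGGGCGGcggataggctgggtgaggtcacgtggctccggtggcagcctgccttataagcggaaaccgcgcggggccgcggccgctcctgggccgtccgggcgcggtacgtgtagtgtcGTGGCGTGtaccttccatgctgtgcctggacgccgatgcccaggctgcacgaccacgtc

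In Hmgcs1 the match to CACNCCAC was CACCCCAC, which began 136 bases before the start site. In Insig1 it was GTGGCGTG on the strand shown, 9 bases before the start site, and the Mvd window held none. All 3 windows held CCAAT on at least 1 strand, 4 times in Hmgcs1, 2 times in Mvd and 1 time in Insig1. The GC box matched 3 times in Hmgcs1, 1 time in Mvd and 3 times in Insig1. Over all 32851 promoters of the table, 6.24% held CACNCCAC, 37.4% CCAAT and 35.7% GGGCGG. These matches are letters in a window and say nothing of whether a factor was bound.

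Totals per library ran from 6829720 to 7696168 counts. Levels are CPM, counts per 1000000 after scaling by TMM factors over all 5 libraries, with 95% exact Poisson intervals in parentheses. Intervals cover counting error only, since the reads carry no molecular identifiers and no group had a second library. Each difference between 2 groups is therefore a difference between 2 libraries and not a test of the conditions. Of 12 microglia and macrophage markers 10 had a mean of at least 10 CPM, and P2ry12 and Tmem119, which mark homeostatic microglia, did not. The marker lists of astrocytes, neurons and fibroblasts summed to at most 3.61 CPM in any library. The 7 oligodendrocyte markers summed to 15.6 to 25.1 CPM with Cnp alone at 12.4 to 20.9, while Mog was at 0 in all 5 libraries.

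The summed level of the 8 genes was nearly the same in every library. It was 398 CPM (384 to 412) in the control and 384 (371 to 398) in UPM, then 379 (365 to 393) with TZ 1.25, 380 (366 to 395) with TZ 2.5 and 380 (366 to 395) with TZ 5. The control was the highest and the other 4 libraries lay within each other's counting intervals. Against UPM the sum was 0.985-fold (0.935 to 1.04) in TZ 1.25, 0.988-fold (0.937 to 1.04) in TZ 2.5 and 0.989-fold (0.938 to 1.04) in TZ 5. UPM against control gave 0.966-fold (0.918 to 1.02). Hmgcs1 and Sqle together supplied most of these counts, with 39.6% and 29.6% in the control.

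**Figure D1:**
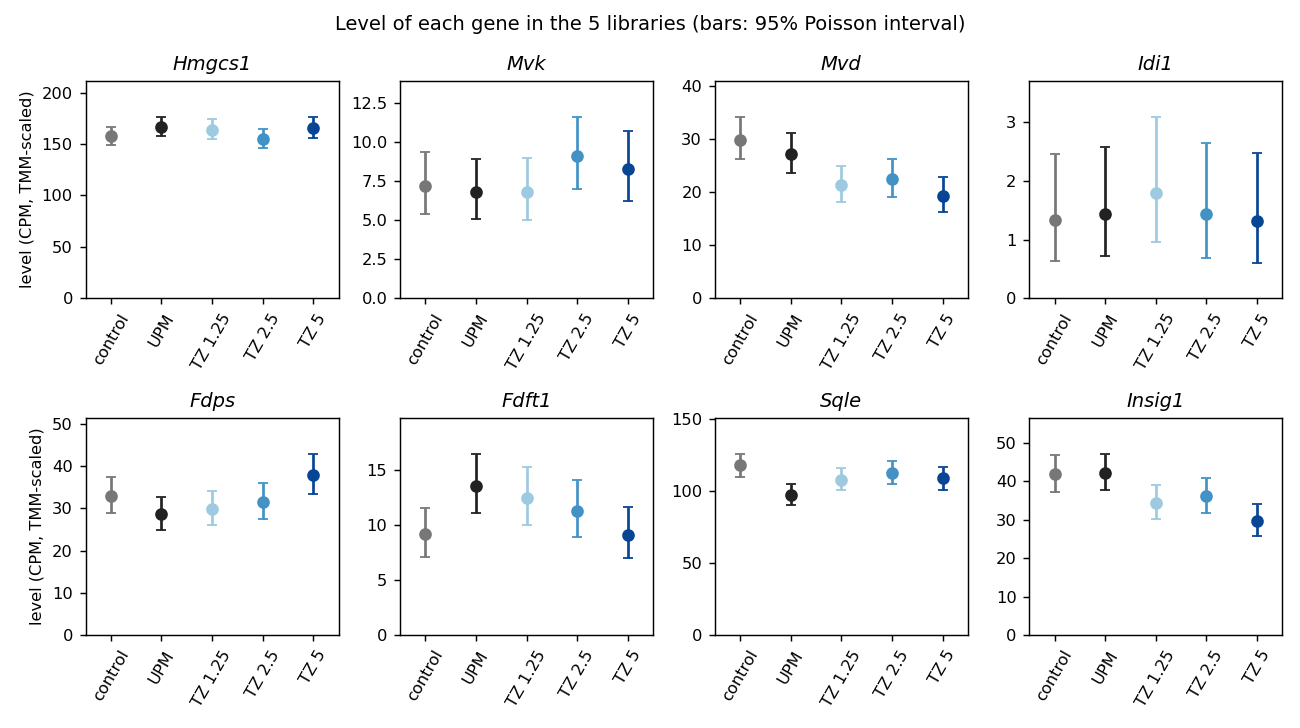
Level of each of the 8 genes in the 5 libraries. The y axis is TMM-scaled CPM from 0, each point is 1 library and the bars are 95% Poisson intervals. Hmgcs1 stayed between 155 and 167 CPM, while Mvd and Insig1 had their lowest point in TZ 5 at 19.3 and 29.7 CPM.

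Hmgcs1 encodes the cytosolic synthase that makes HMG-CoA from acetoacetyl-CoA and acetyl-CoA. Its level was 158 CPM (149 to 167) in the control and 167 (158 to 176) in UPM, then 164 (155 to 174) with TZ 1.25, 155 (146 to 165) with TZ 2.5 and 166 (156 to 176) with TZ 5. The highest library exceeded the lowest by 1.08-fold (0.992 to 1.17), so no 2 libraries were apart by more than counting error. It was the most abundant of the 8 in counts and the least variable. Between TZ 5 and UPM the interval of its fold, 0.916 to 1.08, excludes a difference of 1.5-fold in counting terms.

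Mvk encodes mevalonate kinase, which adds the first phosphate to mevalonate. Its level was 7.19 CPM in the control and 6.80 in UPM, then 6.79 with TZ 1.25, 9.09 with TZ 2.5 and 8.27 with TZ 5, from 49 to 63 counts. Neighbours in this order did not differ beyond their intervals, and TZ 2.5 over TZ 1.25, the highest over the lowest, was 1.34-fold (0.907 to 1.99). Mvk lay under the mean of 10 CPM set for calls in every pair of libraries.

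Mvd encodes the decarboxylase that turns mevalonate diphosphate into isopentenyl diphosphate. Its level was 29.9 CPM (26.2 to 34.1) in the control and 27.2 (23.6 to 31.1) in UPM, then 21.3 (18.1 to 25) with TZ 1.25, 22.4 (19.0 to 26.2) with TZ 2.5 and 19.3 (16.2 to 22.9) with TZ 5. The 3 libraries with TZ were the 3 lowest, and none differed from its neighbour in the order by more than counting error. TZ 5 against control was 0.644-fold (0.516 to 0.802). TZ 5 against UPM was 0.710-fold (0.567 to 0.886), TZ 1.25 against UPM 0.785-fold (0.633 to 0.972) and TZ 2.5 against UPM 0.823-fold (0.664 to 1.02). As a share of the counts of all 8 genes, which no scaling factor enters, Mvd went from 7.07% (6.17 to 8.06, Clopper-Pearson) in UPM to 5.07% (4.26 to 5.98) in TZ 5.

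Idi1 encodes the isomerase that converts isopentenyl into dimethylallyl diphosphate. It had only 9 to 13 counts in a library, or 1.33 CPM in the control and 1.44 in UPM, then 1.80 with TZ 1.25, 1.44 with TZ 2.5 and 1.31 with TZ 5. The highest over the lowest was 1.38-fold (0.546 to 3.66), so a 1.5-fold difference was not detectable at this depth. A pseudogene of it, Idi1-ps1, had 4 to 20 counts, and reads can be divided between the copies. The paralog Idi2 was at 0 in all 5 libraries. For a count of 0 the limit used was 3 counts per library in place of the Poisson interval, which is 0.392 to 0.435 CPM.

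Fdps encodes farnesyl diphosphate synthase, at the branch between sterols and prenylation. Its level was 33.0 CPM (29.0 to 37.4) in the control and 28.6 (25 to 32.7) in UPM, then 29.9 (26.1 to 34.2) with TZ 1.25, 31.5 (27.4 to 35.9) with TZ 2.5 and 38.0 (33.5 to 42.9) with TZ 5. TZ 5 was the highest library and UPM the lowest, and no neighbours in the order differed beyond counting error. TZ 5 over the control was 1.15-fold (0.964 to 1.38). TZ 5 against UPM was 1.33-fold (1.11 to 1.60), under the limit of 1.5. TZ 5 was also above TZ 2.5, at 1.21-fold (1.01 to 1.45).

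Fdft1 encodes squalene synthase, the first step committed to sterols. Its level was 9.18 CPM (7.15 to 11.6) in the control and 13.6 (11.1 to 16.5) in UPM, then 12.5 (10.0 to 15.3) with TZ 1.25, 11.3 (8.90 to 14.1) with TZ 2.5 and 9.14 (7.02 to 11.7) with TZ 5. UPM stood highest and TZ 5 was level with the control at 0.995-fold (0.696 to 1.42). No neighbours in the order of levels differed beyond counting error, so an order by dose was not resolved. The fold of UPM over control was 1.48 (1.08 to 2.04) and that of TZ 5 over UPM 0.672 (0.484 to 0.928), both just short of a 1.5-fold difference. With all libraries thinned to the smallest total in a single random draw these became 1.59-fold and 0.663-fold and passed it. How far they vary between draws was not tested. In the GENCODE annotation of GRCm38 Fdft1 overlaps Ctsb, the cathepsin B gene, on the opposite strand. Ctsb had 1425, 1605, 1419, 1540 and 1632 CPM in the same order of libraries, high in UPM but highest in TZ 5, where Fdft1 was lowest. The sources used here do not say how reads from this overlap were counted, and its part in the values was not tested.

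Sqle encodes squalene epoxidase, an oxygen-dependent and rate-controlling step after squalene. Its level was 118 CPM (110 to 126) in the control and 97.6 (90.7 to 105) in UPM, then 108 (101 to 116) with TZ 1.25, 113 (105 to 121) with TZ 2.5 and 109 (101 to 117) with TZ 5. UPM was the lowest and the control the highest, with the 3 TZ libraries between them. UPM against control was 0.830-fold (0.752 to 0.916). Each TZ library stood above UPM, at 1.11-fold (0.999 to 1.22), 1.16-fold (1.05 to 1.28) and 1.12-fold (1.01 to 1.24) with increasing dose. These folds were well under 1.5 and all 3 rest on the same UPM library.

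Insig1 is the retention protein described above, through which sterols feed back on SREBP2. Its level was 41.8 CPM (37.3 to 46.7) in the control and 42.2 (37.7 to 47.1) in UPM, then 34.4 (30.2 to 38.9) with TZ 1.25, 36.1 (31.8 to 40.8) with TZ 2.5 and 29.7 (25.8 to 34.1) with TZ 5. Control and UPM were level, at 1.01-fold (0.862 to 1.18), and the 3 TZ libraries were below both. TZ 5 was 0.704-fold (0.588 to 0.842) of UPM and 0.711-fold (0.594 to 0.851) of the control, short of a 1.5-fold difference. TZ 1.25 and TZ 2.5 were 0.814-fold (0.687 to 0.964) and 0.855-fold (0.722 to 1.01) of UPM, and TZ 5 was 0.824-fold (0.682 to 0.995) of TZ 2.5. For both Mvd and Insig1 TZ 5 was the lowest library, while no neighbours in the order of either gene differed beyond counting error.

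**Figure D2:**
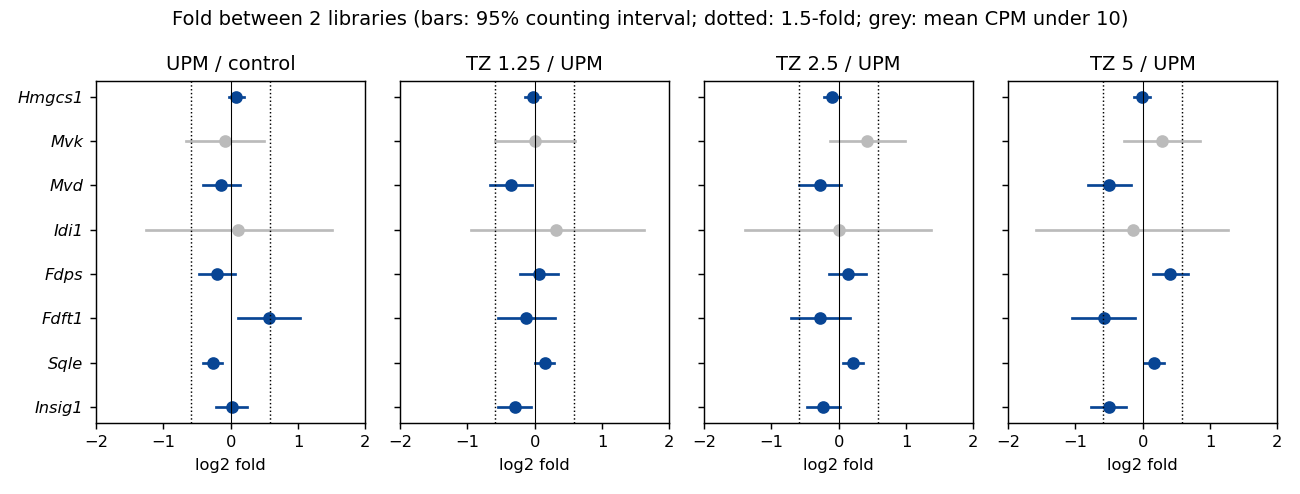
Log2 fold of each gene in UPM against control and in each TZ library against UPM. Points are folds, bars 95% counting intervals, dotted lines a 1.5-fold difference, and grey marks a pair with a mean under 10 CPM. In TZ 5 Mvd, Fdft1 and Insig1 lie to the left and Fdps to the right, with their points inside the dotted lines.

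A gene was called in a pair of libraries when its fold was at least 1.5 either way, the interval excluded 1 and the mean of the pair was at least 10 CPM. In UPM against control 6 of the 8 genes reached that mean, 0 were called, and of all 8282 genes 1.67% were called higher and 1.41% lower. In TZ 1.25 against UPM 0 of 6 were called, beside 1.19% of all genes higher and 1.03% lower. In TZ 2.5 against UPM it was 0 of 6, beside 2.67% and 1.73%, and in TZ 5 against UPM 0 of 6, beside 3.78% and 2.80%. The median log2 fold of the measured members in TZ 5 against UPM was −0.25, against 0.005 for all genes. Of these 6 genes 4 were below 0, with Fdft1 at −0.57, Insig1 at −0.51, Mvd at −0.49 and Hmgcs1 at −0.01, and Sqle and Fdps were above it. Against the control 0 of 6 were called in TZ 1.25 (all genes 1.56% higher, 0.821% lower) and 0 of 6 in TZ 2.5 (2.21% and 1.41%). In TZ 5 against control 1 of 5, Mvd, was called lower, where 3.55% of all genes were higher and 2.51% lower. The comparisons share the UPM or the control library, so they are not independent of each other. The 1 call among the members rests on Mvd and the control library, and nothing is read from a single call.

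Dose was then tested as a number in a fit of all 5 libraries with a term for UPM and a slope for TZ (edgeR quasi-likelihood test, Benjamini-Hochberg adjusted over 12381 genes). Among all genes the slope was positive for 2.95% and negative for 2.50% at an adjusted p under 0.05. Of the 8 members 0 passed, and 2, Insig1 and Fdps, had an unadjusted p under 0.05. So did 2175 of all 12381 genes, and nothing is read from the number of members. The log2 slope per μg/mL was −0.090 for Insig1 (SE 0.038, edgeR adjusted p = 0.179) and 0.083 for Fdps (SE 0.038, adjusted p = 0.233). Over the alternatives tried these adjusted p values ranged from 0.124 to 0.712 and from 0.213 to 0.861. The slope was −0.087 for Mvd (SE 0.044, adjusted p = 0.304) and −0.12 for Fdft1 (SE 0.063, adjusted p = 0.348). Without the UPM library that of Mvd was −0.046 (adjusted p = 0.863, the highest of a range from 0.216), and without TZ 5 that of Fdps was 0.053. Hmgcs1, Mvk, Idi1 and Sqle had adjusted p values of 0.664 to 0.971. The UPM term rests on 1 control library, which is assumed to vary like the others. For this term 0.0808% of all genes passed as higher and 0.0323% as lower. Of the members 0 passed and 0 had an unadjusted p under 0.05, with Fdft1 nearest at a log2 value of 0.57 (SE 0.29, edgeR adjusted p = 0.653). The DESeq2 Wald test called 0 members for either term, and gave no adjusted p for 6 of the 8 slopes. The fit leaves 2 residual degrees of freedom beside 48.7 borrowed across genes, so these p-values rest mostly on the spread shared by all genes.

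Insig2, which is not among the 8 genes, encodes a second retention protein that binds Scap as Insig1 does, and it was called higher with TZ. Its level was 16.0 CPM (13.2 to 19.1) in the control and 14.1 (11.6 to 17.0) in UPM, then 21.3 (18.1 to 25) with TZ 1.25, 23.5 (20.1 to 27.4) with TZ 2.5 and 26.8 (23.1 to 31.0) with TZ 5. All 3 TZ libraries exceeded both others. The steps between doses were within counting error, at 1.10-fold (0.879 to 1.38) from TZ 1.25 to TZ 2.5 and 1.14-fold (0.919 to 1.42) from TZ 2.5 to TZ 5. Against UPM Insig2 was called higher at each dose, at 1.51-fold (1.17 to 1.95), 1.67-fold (1.30 to 2.15) and 1.90-fold (1.49 to 2.43), none of which reached a 2-fold limit. Of all genes 1.19%, 2.67% and 3.78% were called higher in these pairs. Against the control TZ 5 was called, at 1.68-fold (1.33 to 2.13), while TZ 1.25 and TZ 2.5 were 1.34-fold (1.05 to 1.71) and 1.47-fold (1.16 to 1.88). Its log2 slope per μg/mL was 0.16 (SE 0.048, edgeR adjusted p = 0.0351). The slope was no longer called without the UPM library (0.085, adjusted p = 0.636), without TZ 2.5 (adjusted p = 0.0705) or without TZ 5 (adjusted p = 0.145), and DESeq2 gave it no adjusted p. Over all alternatives its adjusted p ranged from 0.0119 to 0.636.

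The share of Insig1 among the counts of both Insig genes does not depend on scaling, and was computed after their levels were seen. It was 72.4% (67.9 to 76.5, Clopper-Pearson) in the control and 74.9% (70.6 to 79.0) in UPM. It was 61.7% (56.7 to 66.5) in TZ 1.25, 60.5% (55.6 to 65.3) in TZ 2.5 and 52.6% (47.5 to 57.6) in TZ 5. None of the TZ intervals overlapped those of the 2 libraries without TZ. These intervals cover counting error only, and how often other pairs of genes part in this way was not computed.

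**Figure D3:**
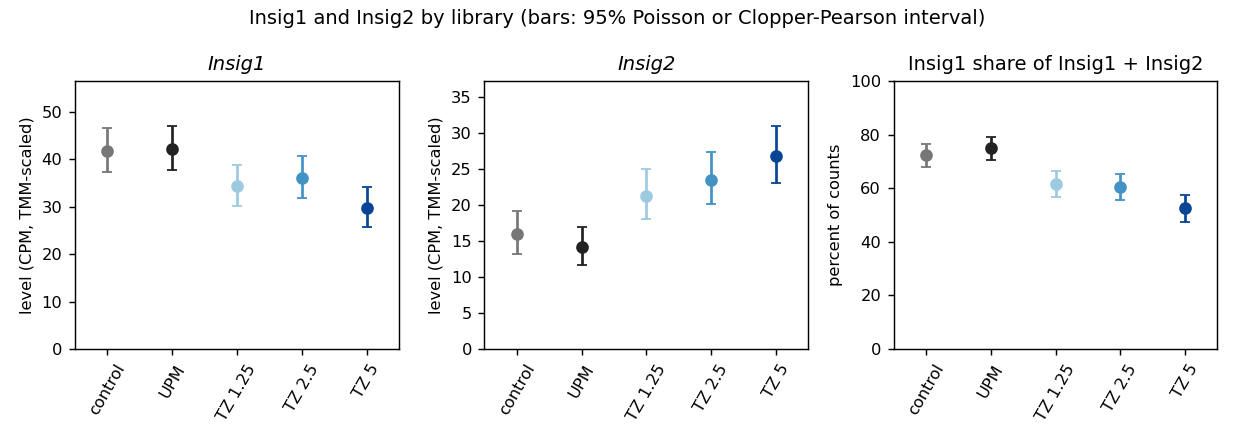
Levels of Insig1 and Insig2 in TMM-scaled CPM and the percentage of their joint counts that came from Insig1, for each library. Bars are 95% Poisson or Clopper-Pearson intervals. The share is 74.9% in UPM and 52.6% in TZ 5.

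Acat2, which makes acetoacetyl-CoA, and Pmvk, the kinase between Mvk and Mvd, are early steps outside the 8 genes. Neither was called in any of the 4 main pairs or passed the dose test. Pmvk, at 20.1, 15.9, 15.9, 19.3 and 21.2 CPM, was 1.33-fold (1.04 to 1.70) of UPM in TZ 5, as Fdps was. Acat2 was lowest in TZ 1.25, at 0.739-fold (0.646 to 0.845) of UPM.

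Among 8 measured post-squalene enzymes 0 were called in TZ 5 against UPM, beside 3.78% of all genes higher and 2.80% lower. Their median log2 fold was −0.06. Nsdhl was the lowest at 0.737-fold (0.632 to 0.859) and Lss, the cyclase after Sqle, the highest at 1.29-fold (0.946 to 1.78). In TZ 2.5 Hsd17b7 was called lower against UPM at 0.647-fold (0.473 to 0.881) and against the control at 0.625-fold (0.457 to 0.849). Of all genes 1.73% and 1.41% were called lower in these pairs. Both calls rest on the same TZ 2.5 library, where Hsd17b7 had 68 counts or 9.82 CPM. It had 15.7 CPM in the control, 15.2 in UPM, 17.0 in TZ 1.25 and 15.7 in TZ 5. Of the 9 enzymes tested for dose 0 passed, with 2 at an unadjusted edgeR p under 0.05, beside 2175 of all 12381 genes. Of 8 genes of SREBP control and sterol transport, only Insig2 was called in TZ 5 against UPM, higher as 3.78% of all genes were. The median of this list was −0.02. Its lowest member was Mylip, an LXR-induced ubiquitin ligase, at 0.722-fold (0.613 to 0.850). Mylip was highest in UPM at 49.8 CPM, with 38.2 in the control and 36.0 in TZ 5. Srebf2, encoding SREBP2 itself, had 191 CPM in the control and 148 in UPM, then 172, 143 and 132 with increasing dose. Its fold was 0.775 (0.716 to 0.839) between UPM and control. Against UPM it was 1.16 (1.07 to 1.26) in TZ 1.25, 0.968 (0.888 to 1.06) in TZ 2.5 and 0.888 (0.813 to 0.970) in TZ 5. The dose slope of Srebf2 did not pass (edgeR adjusted p = 0.291). Stard4, a sterol carrier, was called lower in TZ 1.25 against UPM at 0.665-fold (0.563 to 0.786), beside 1.03% of all genes. It too was highest in UPM, at 48.7 CPM, with 37.8 in the control and 32.4 in TZ 1.25.

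The branch from farnesyl diphosphate to prenyl groups, dolichol and ubiquinone had 0 of 12 measured genes called in TZ 5 against UPM. Of all genes 3.78% were called higher and 2.80% lower in this pair, and the median of the branch was −0.04. Fnta, a subunit of farnesyltransferase, was the highest of the branch at 1.44-fold (1.19 to 1.74), and Icmt the lowest at 0.775-fold (0.624 to 0.960). Icmt was called lower in TZ 2.5 against UPM, beside 1.73% of all genes. It was highest in UPM at 27.7 CPM, with 20.2 in the control and 17.9 in TZ 2.5. Coq2, of ubiquinone synthesis, was called higher in UPM against control at 1.79-fold (1.29 to 2.52), beside 1.67% of all genes. It was also called in each TZ library against control. All these calls rest on the same control library, where Coq2 had 58 counts or 7.72 CPM. It had 13.9 CPM in UPM, then 13.3, 14.6 and 13.6 with increasing dose, and its UPM term did not pass. Against the control Fnta was called higher in TZ 2.5 and TZ 5, at 1.61-fold and 1.71-fold, beside 2.21% and 3.55% of all genes. Pdss1 was called lower in TZ 1.25 against the control, beside 0.821% of all genes. Of 8 genes of sterol-dependent protein degradation 0 were called in TZ 5 against UPM, beside the same 3.78% and 2.80%, with a median of 0.10. Rnf139, a ubiquitin ligase of the endoplasmic reticulum, was 1.19-fold (0.967 to 1.46), and Vcp, the segregase that extracts ubiquitylated proteins, was 0.752-fold (0.712 to 0.794). The slope of Vcp passed over all genes at −0.078 (SE 0.022, edgeR adjusted p = 0.0255) but not without the UPM library (adjusted p = 0.627, the highest of a range from 0.00482).

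The fatty acid genes driven by SREBP1 had 1 of 10 measured members called lower in TZ 5 against UPM, 0 higher and a median of −0.33, where all genes had 2.80% lower, 3.78% higher and a median of 0.005. The called gene was Scd1, a desaturase, at 0.647-fold (0.497 to 0.838). It was also called lower in TZ 1.25 and TZ 2.5, at 0.547-fold and 0.651-fold, beside 1.03% and 1.73% of all genes. UPM had Scd1 at 1.68-fold (1.30 to 2.19) of the control, a call beside 1.67% of all genes higher. Its level was 12.6 CPM in the control and 21.3 in UPM, then 11.6, 13.9 and 13.8 with increasing dose. Against the control Me1, the malic enzyme, was called higher in TZ 1.25 and TZ 5, beside 1.56% and 3.55% of all genes. Srebf1, which encodes SREBP1, was called lower in TZ 5 against the control at 0.650-fold (0.551 to 0.766), beside 2.51%. For dose 2 of 11 fell and 0 rose, beside 2.50% and 2.95% of all genes. Fasn, fatty acid synthase, fell with a log2 slope of −0.089 (SE 0.023, edgeR adjusted p = 0.0137) and Scd2 with −0.095 (SE 0.025, adjusted p = 0.0149). Fasn went from 248 CPM in UPM through 209 and 199 to 179 in TZ 5, with 258 in the control. Scd2 had 257 CPM in the control and 289 in UPM, then 210, 194 and 199 with increasing dose, so its 3 TZ libraries lay close together below UPM. Its slope was −0.016 without the UPM library and −0.235 without TZ 5. Neither slope passed without the UPM library (adjusted p = 0.447 and 0.915, the highest of ranges from 0.00371 and 4.63e-05). That of Fasn did not pass without TZ 5 (adjusted p = 0.088), and that of Scd2 did not with DESeq2 (adjusted p = 0.413). Of 7 genes of LXR and cholesterol efflux 1, Nr1h2, was called lower in TZ 5 against UPM at 0.622-fold (0.524 to 0.738), beside 2.80% of all genes, and the list median was −0.18. Apoe, the main apolipoprotein of efflux in the brain, was called higher in TZ 2.5 against control, beside 2.21% of all genes. It had 7.85 CPM in the control and 6.01 in UPM, then 8.59, 12.8 and 7.54 with increasing dose. Only in this pair did Apoe reach the mean of 10 CPM, through the TZ 2.5 library, so nothing is read from the call. Nr1h2, the gene of LXR beta, also fell with dose (slope −0.14, SE 0.038, edgeR adjusted p = 0.0181), not so without the UPM library (adjusted p = 0.481, the highest of a range from 0.0056). DESeq2 gave this slope no adjusted p. Nr1h2 had 35.4 CPM in the control and 49.4 in UPM, then 40.1, 31.3 and 30.7 with increasing dose. Against UPM it was also called lower in TZ 2.5, at 0.634-fold (0.534 to 0.751), beside 1.73% of all genes. UPM was 1.40-fold (1.19 to 1.64) of the control, and Nr1h2 was not called against the control at any dose.

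**Figure D4:**
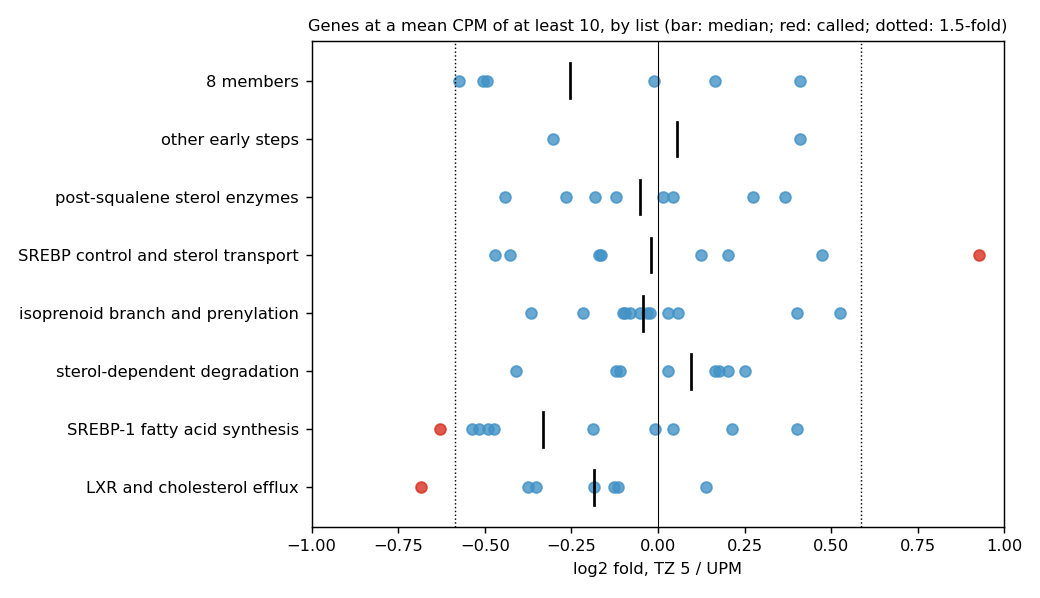
Log2 fold of TZ 5 against UPM for genes at a mean of at least 10 CPM, by list. Each point is a gene, black bars are list medians, red marks a called gene and dotted lines a 1.5-fold difference. The members spread on both sides of 0 with a median of −0.25, and Insig2 is the red point on the right at 1.90-fold.

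Other features also differed between the libraries. Small nucleolar RNAs (symbols beginning Snora or Snord) made up 0.0854% of the control library and 0.108% of the UPM library, then 0.0995% with TZ 1.25, 0.0645% with TZ 2.5 and 0.0458% with TZ 5. Mitochondrial ribosomal RNA took 7.94%, 8.80%, 8.64%, 7.00% and 7.06%. The summed microglia and macrophage markers ranged from 3147 CPM in TZ 1.25 to 3570 in TZ 5. In that list 1 of 12 genes, Aif1, rose with dose and 0 fell, beside 2.95% and 2.50% of all genes. Its log2 slope was 0.094 (SE 0.023, edgeR adjusted p = 0.00666, not passed without UPM at 0.0607 or without TZ 5 at 0.17, over a range from 0.00227). Of 10 measured markers 1, Cx3cr1, was called lower in TZ 5 against UPM at 0.612-fold (0.450 to 0.825), beside 2.80% of all genes. In this pair 8 of the 10 had a fold above 1, and in TZ 5 against control 0 of 10 were called. The part of these shifts in the values of Insig1, Insig2, Mvd and Fdps was not tested. In bulk RNA, fewer cells of a kind and less RNA per cell cannot be told apart.

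Among 5364 other genes at a mean of at least 30 CPM, those whose log2 levels followed the summed level of the 8 genes most closely over the 5 libraries were Mdm2 (Pearson r = 0.993), Piezo1 (0.989), Spred1 (0.987), Ide (0.984) and Rlim (0.984). Each was highest in the control, as the sum was. Mdm2, the ubiquitin ligase of p53, had 170 CPM in the control, 148 in UPM and 139 to 143 in the TZ libraries. As many as 116 genes had an r above 0.9 over these 5 points, which share library depth and scaling, so this likeness is only a description.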

How the data were processed

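Messenger RNA of 5 BV-2 libraries was measured by QuantSeq 3′-end sequencing, per the labels. Each deposited file holds whole-number read counts by gene symbol for 1 library. STAR, edgeR and build GRCm39 are named in the submitters' processing notes with no version, and which counter, annotation and strand setting were used is not given in the sources. The members and gene lists were chosen with earlier results of these data known. Some genes of these lists are not reported here and were left out of the list counts.

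Folds were ratios of TMM-scaled CPM (edgeR 4.0.16, limma 3.58.1, R 4.3.3) with 95% exact conditional binomial intervals. Dose was fitted with edgeR's glmQLFit after filterByExpr, with TMM factors from all genes. Standard errors were derived as the absolute log2 coefficient over the root of its F statistic. The 5-library fit and the folds were tested on simulated data with known changes. Alternatives were DESeq2 1.42.0 size factors or its Wald test, total counts, a 2-fold limit, a minimum mean of 1 or 30 CPM, thinned libraries, no filter, ranked dose, no dose term, and each UPM library left out. Named genes were all members, called or extreme members of each list in TZ 5 against UPM, and the 5 genes most like the members' sum. Other genes named, and the motifs, were chosen after their values were seen. Promoters are from a GRCm38.p6 RefSeq table, and no coordinates were converted between builds.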

Additional observations from a re-analysis of the deposited data

How the results depend on the processing

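No paired analysis was possible because each group had 1 library. Of 393 values set against the main ones under the alternatives, 365 were classed as the same, 10 as stronger, 15 as weaker and 3 as reversed. This tally does not measure robustness, because part of it was fixed in advance. Folds under the 2-fold limit repeat the main folds, since the limit enters the call and not the fold. A gene not called at 1.5-fold could not be called there, and its fold was always classed as the same. The class of the same did not require a fold that was not called to keep its direction. For example, Idi1 in UPM against control went from 1.08-fold to 0.997-fold with thinned libraries. Totals of genes called, which have no direction, were also classed, and 674 and 916 for dose counted as the same. With libraries thinned to the smallest total in a single random draw, Fdft1 was the 1 member called in UPM against control and in TZ 5 against UPM. Its folds there were 1.59 and 0.663. In TZ 5 against control 0 members were called at a fold of 2 or a mean of 30 CPM, where Mvd had 0.644-fold at a mean of 24.6 CPM. A 2-fold limit also ended all 4 calls of Insig2. The UPM term called 14 genes in all, against 6 with DESeq2, 34 with no filter, 26 with ranked dose, 1 with no dose term, and 14 to 80 with 1 library left out. The highest of these was without TZ 5. The dose term called 674 genes, against 300 with DESeq2, 699 with its size factors, 690 with no filter, 916 with ranked dose, and 209 (without UPM) to 576 (without TZ 1.25) with 1 library left out. It called 370 without TZ 5. With 1 library left out, slopes near 0 crossed it for Hmgcs1 (−0.044 to 0.008), Idi1 (−0.117 to 0.003) and Sqle (−0.001 to 0.084). The cause was not tested. Depth limits Idi1 and Mvk, whose counts reached at most 13 and 63 in a library.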

Other observations

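The following values were picked out after they were seen. The pseudogene Idi1-ps1 had 20 counts in the control and 5 in UPM, then 6 with TZ 1.25, 4 with TZ 2.5 and 7 with TZ 5. UPM against control was 0.245-fold (0.072 to 0.674), at a mean of 1.66 CPM, which is under the minimum set for calls. In the Mvk promoter window of build GRCm38.p6, matches to CCAAT on the opposite strand began 173, 120, 67 and 14 bases before the start site, at equal spacing, with a further match on the same strand at 50.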
